A study of Mus musculus with 38 samples.

Results

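The glutathione, aldehyde and redox detoxification genes of the mouse spleen were followed after a single dose of cyclophosphamide. The genes were chosen by name: every probe that the array's annotation pairs with 1 gene whose symbol starts with Aldh, Gst, Mgst, Gpx, Gcl, Prdx, Txn, Glrx, Akr or Nqo, or with Sod or Cyp followed by a digit, with Mgst3 left out. Of 13443 probes on the array, 132 probes for 125 genes matched. In each group 3 or more mice had to give a value, which 82 of these probes, for 80 genes, met. They were tested together with all other probes that met it, 8319 in all. No measured value other than this presence enters the rule, but the rule was chosen with earlier results of these data known.

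Spleen cells came from DBA/2 mice in 4 groups. The first was untreated (5 mice), and the other 3 were taken 1 day (4 mice), 2 days (5 mice) and 5 days (5 mice) after 1 intraperitoneal injection of cyclophosphamide at 83 mg/kg. Each mouse was measured on 2 technical arrays, averaged here. Each value is a log ratio, its base taken as 2, of the spleen sample to 1 reference. That reference is labelled as a pool of marrow from untreated DBA/2 mice, although its treatment field names cyclophosphamide. The reference is shared by all arrays and cancels between groups. The labels name no vehicle-injected group and give neither sex nor age.

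Cyclophosphamide is a prodrug. Cytochrome P450 enzymes, mainly in the liver, hydroxylate it, and the product opens to an aldehyde that aldehyde dehydrogenases can oxidise to an inactive acid. What escapes breaks down to an alkylating mustard and to acrolein, which glutathione binds with or without glutathione transferases. Peroxiredoxins, glutathione peroxidases and the thioredoxin and glutaredoxin systems reduce peroxides and oxidised thiols in all cells, and some of them are among the most abundant proteins of red cells.

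An array held 5829 to 10407 values, and the technical arrays of a mouse correlated at 0.581 to 0.962. In 3 mice the correlation was below 0.7: untreated mice 4 and 2 and day 5 mouse 5. Within 1 mouse the log2 ratios had an SD of 0.506 to 0.699 on day 2 and of 0.41 to 0.53 without the drug. In untreated mice the mean log2 ratio to marrow was 0.12 to 0.53 for T cell markers and 0.36 to 0.70 for B cell markers, and -2.34 to -1.46 for neutrophil markers. Changes are differences of group means with the moderated standard error of limma, and adjusted p-values (Benjamini-Hochberg) run over all 8319 probes.

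Day 1 against untreated asks what moved within a day of the drug. 1 member passed: Txnip, which encodes the protein that binds and inhibits thioredoxin, rose. That is 1.22% of the 82 members, where 2.33% of all probes tested passed, 0.938% upward and 1.39% downward. At an unadjusted p below 0.05 there were 18 members (22.0%, against 13.2% of all probes), and in 11 members the groups of mice did not overlap (13.4%, against 8.32%). The median change of the members was 0.04 on the log2 scale, beside 0.02 over all probes. The count rested on few mice: it was 0 without day 1 mouse 2 or without day 1 mouse 3, and 2 without day 2 mouse 1 or 3, which share in the estimate of the spread.

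Day 2 against untreated held most of the changes. 7 members rose: the peroxidase gene Prdx1, the thioredoxin reductase gene Txnrd1, Txnip, the secreted glutathione peroxidase gene Gpx3, the aldehyde dehydrogenase genes Aldh3b1 and Aldh6a1, and the cytochrome P450 gene Cyp4f16. 4 members fell: the peroxidase genes Gpx1 and Prdx2, the glutathione transferase gene Gstt3 and the aldehyde dehydrogenase gene Aldh7a1. In bulk spleen, fewer cells of a type and less RNA per cell cannot be told apart. The 11 calls are 13.4% of the members, where 8.31% of all probes tested passed (3.31% upward and 5.00% downward). At an unadjusted p below 0.05 there were 19 members (23.2%, against 20.9%), and the groups did not overlap in 11 (13.4%, against 8.84%). The median size of a change, regardless of sign, was 0.21 for the members and 0.19 for all probes. Calls in both directions depended on how the arrays were scaled: giving every mouse an equal spread of ratios kept 6 of the 11 (Txnrd1 and Aldh3b1, which rose, and the 4 that fell). Quantile normalization kept 5 of them (Txnrd1, Aldh3b1, Gpx1, Prdx2 and Gstt3) and called 2 other members, Mgst1 and Cyp4f18, both upward. Over all probes, calls went from 691 to 351 with equal spread and to 329 under quantile normalization.

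**Figure D1:**
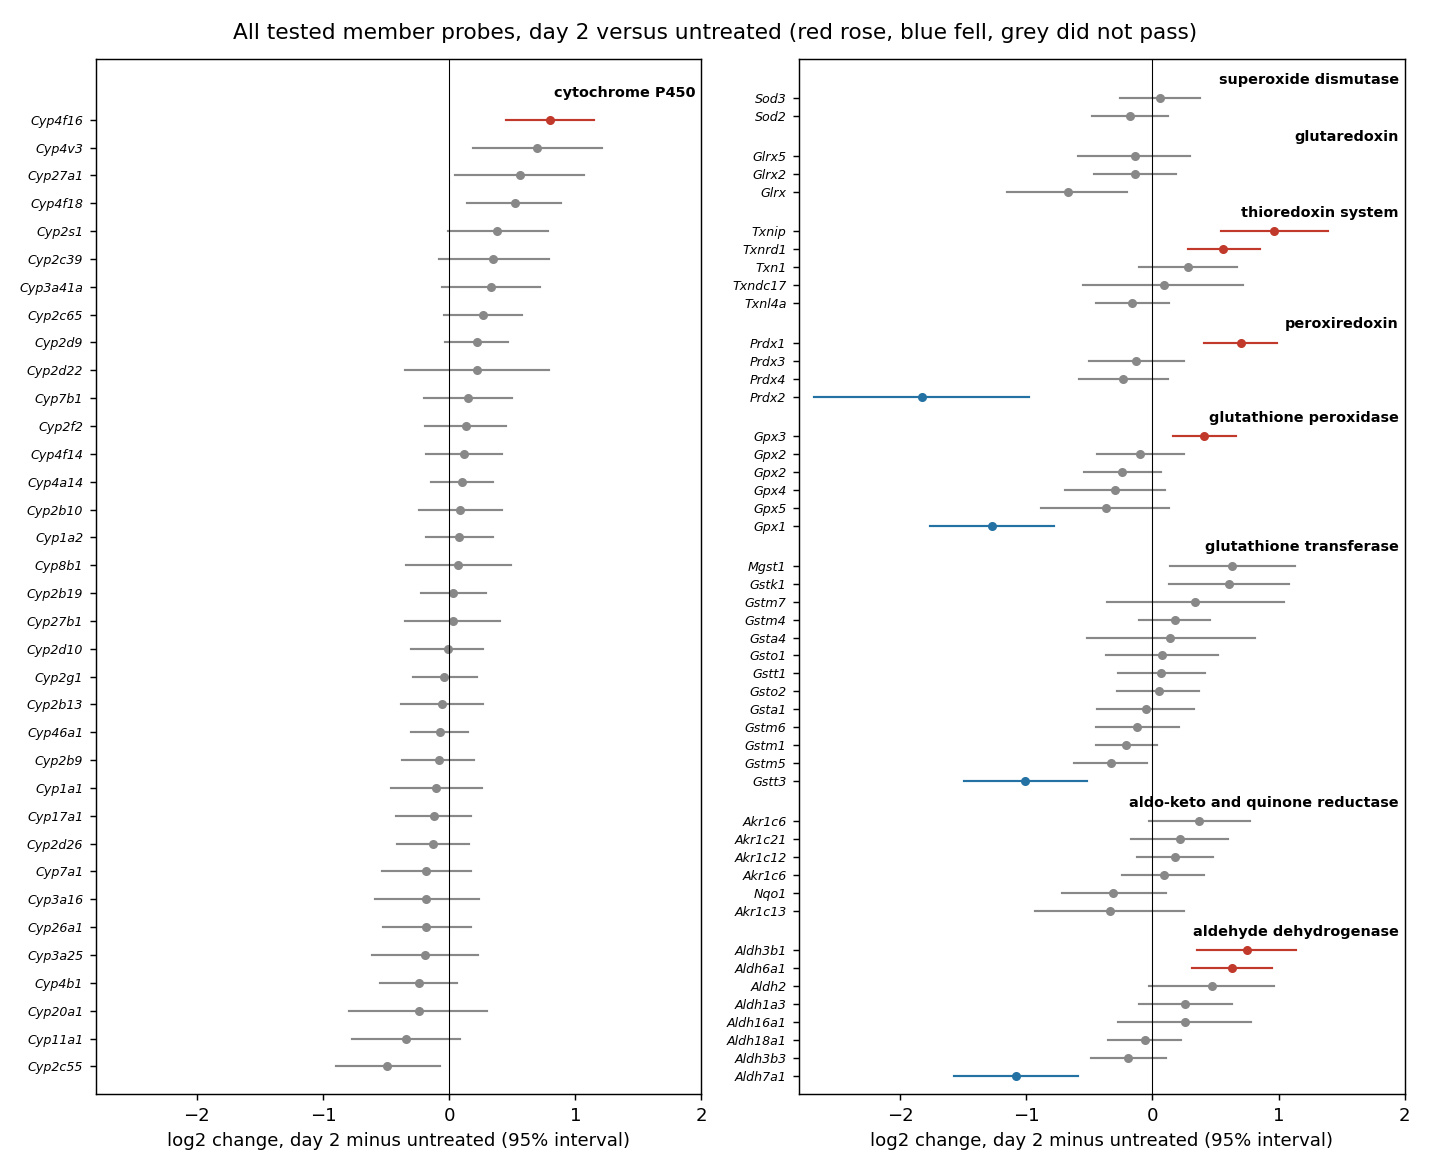
Log2 change on day 2 against untreated (horizontal axis) for each of the 82 tested member probes, grouped by enzyme family; points are limma estimates, lines 95% intervals, and colours mark probes that rose (red), fell (blue) or did not pass (grey). The 35 cytochrome P450 probes, with 1 call, lie from -0.49 to 0.80, and the 4 peroxiredoxin probes from -1.83 to 0.70.

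On day 5 against untreated, 0 members passed in limma, where 0.0721% of all probes did (0.0481% upward, 0.0240% downward). At an unadjusted p below 0.05 there were 2 members, 2.44% against 5.22% of all probes, and in none did the groups of mice separate (1.59% of all probes). The 2 members were Gstt1, a theta class glutathione transferase (0.37 ± 0.17 SE, unadjusted p = 0.0358, limma, adjusted p = 0.923), and Mgst1, a membrane-bound one (0.51 ± 0.24, unadjusted p = 0.0437, limma, adjusted p = 0.923). All members lay between -0.50 and 0.52.

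Between day 1 and day 2 no member passed in limma either (0.0601% of all probes did, and 3 members had an unadjusted p below 0.05, 3.66% against 6.02%). In no member did those 2 groups of mice separate, as they did in 3.39% of all probes. From day 2 to day 5, 4 members rose (Gpx1, Prdx2, Aldh7a1 and the glutaredoxin gene Glrx) and 4 fell (Prdx1, Txnip, Cyp4f16 and Aldh6a1). These 8 calls are 9.76% of the members, where 5.30% of all probes passed (3.80% upward, 1.50% downward). In 6 members, 7.32%, the day 2 and day 5 mice did not overlap, against 7.37% of all probes. This comparison and that of day 2 with untreated share the day 2 mice. The count was 3 without day 2 mouse 5, 4 without day 5 mouse 3 and 5 without day 5 mouse 1. None of the 8 passed under quantile normalization, where the 1 member called was Cyp4f18, and none with an equal spread between mice. Over all probes, calls went from 441 to 69 under quantile normalization and to 154 with equal spread.

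**Figure D2:**
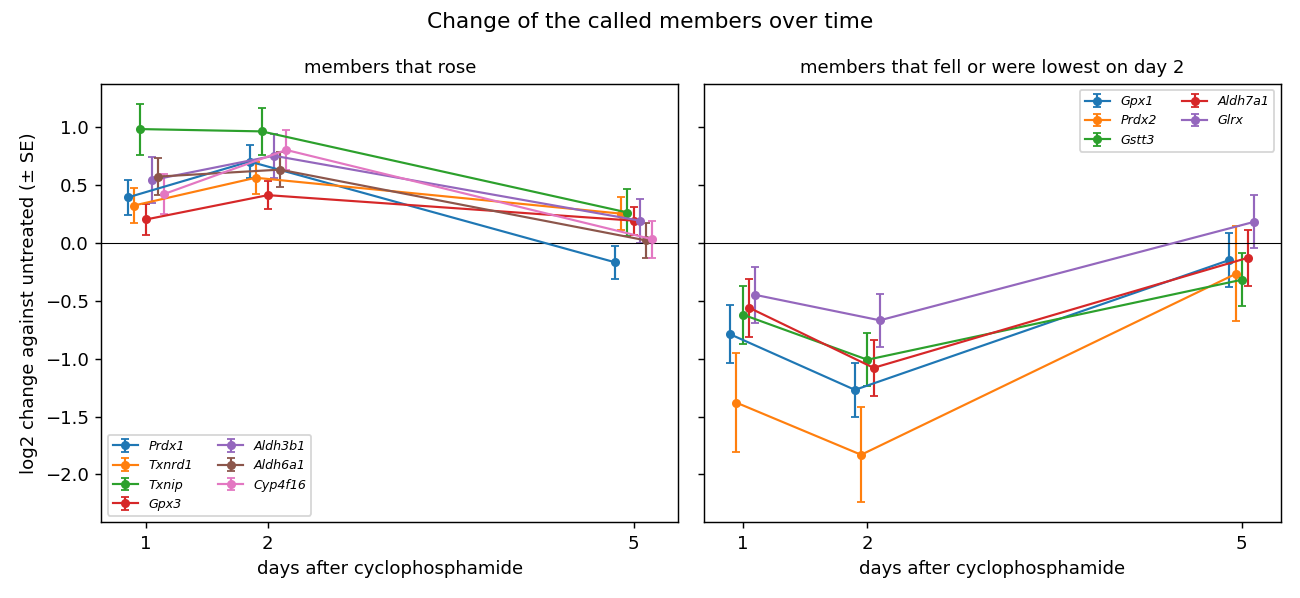
Log2 change against untreated (vertical axis, ± SE from limma) at 1, 2 and 5 days after cyclophosphamide for the 12 member genes that passed in at least 1 comparison, split into those that rose (left) and those that fell or were lowest on day 2 (right). On day 2 the genes on the left lie between 0.41 and 0.96 and those on the right between -1.83 and -0.67, and on day 5 no gene passed against untreated.

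The peroxiredoxins, thiol peroxidases that pass electrons from thioredoxin to hydrogen peroxide, moved in opposite directions. Prdx1 encodes the widely expressed cytosolic form. Its log2 ratio to marrow was 1.05, 0.91, 0.66, 0.72 and 1.10 in the 5 untreated mice and 1.44, 1.22, 1.15 and 1.29 on day 1. It was 1.38, 1.43, 1.61, 1.63 and 1.91 on day 2 and 0.57, 0.39, 1.00, 0.93 and 0.70 on day 5. Every mouse of days 1 and 2 lay above every untreated mouse, and every day 5 mouse below every day 1 and day 2 mouse. Prdx1 rose 1.63-fold on day 2 (log2 0.70 ± 0.14 SE, 5 against 5 mice, limma, adjusted p = 0.00261) and fell 1.83-fold from day 2 to day 5 (log2 -0.87 ± 0.14, adjusted p = 0.000494). The day 1 difference of 0.39 ± 0.15 did not pass (limma, adjusted p = 0.209). The day 2 rise was 0.25 under quantile normalization (adjusted p = 0.533) and 0.39 with equal spread (adjusted p = 0.335), and the later fall did not pass under either.

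Prdx2 encodes the cytosolic form that is abundant in red cells. The untreated mice were at 0.20, -0.44, 0.05, 0.37 and 0.40, the day 1 mice at -1.74, -1.89, -0.45 and -0.98. On day 2 the values were -2.82, -1.65, 0.10, -1.30 and -2.89, and on day 5 they were 0.02, -0.35, 0.08, -0.50 and -0.02. No day 1 mouse reached the lowest untreated one, while on day 2 mouse 3 stood within the untreated range and the other 4 far below it. Both arrays of that mouse gave the same reading (0.10 and 0.09), whereas those of day 1 mouse 2 differed (-2.93 and -0.85). Prdx2 fell 3.55-fold on day 2 (log2 -1.83 ± 0.41, limma, adjusted p = 0.00667), and the fall passed in every alternative tried, from -2.28 to -1.42. The day 1 difference of -1.38 ± 0.43 missed the threshold (limma, adjusted p = 0.103) but passed under quantile normalization (-1.41, adjusted p = 0.0281) and in a fit of only the groups compared (-1.38, adjusted p = 0.0273). Prdx2 rose 2.94-fold from day 2 to day 5 (log2 1.56 ± 0.41, adjusted p = 0.0281). That call was lost without day 2 mouse 1 or 5 or day 5 mouse 1, 3 or 5, at 1.26 to 1.52 (adjusted p = 0.0610 to adjusted p = 0.0819), and under quantile normalization (1.13, adjusted p = 0.101) or equal spread (1.27, adjusted p = 0.0850). It was also lost on technical array 2 alone, with array weights, with only the groups compared and without the 3 mice of low technical correlation.

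The other peroxiredoxins, of mitochondria (Prdx3) and the endoplasmic reticulum (Prdx4), did not pass in any comparison. Prdx3 averaged -0.24 ± 0.43 (SD, n = 5) untreated, -0.37 ± 0.26 on day 2 and 0.09 ± 0.25 on day 5. Prdx4 lay above the marrow reference in all untreated mice, at 0.52 ± 0.33, and at 0.29 ± 0.12 on day 2.

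The thioredoxin system reduces peroxiredoxins and other protein disulfides with electrons from NADPH. Txnip, its inhibitor, lay at 0.24, -0.20, -0.12, 0.17 and 0.18 untreated, at 0.80, 1.05, 1.40 and 0.88 on day 1 and at 0.88, 0.99, 0.87, 1.08 and 1.28 on day 2. On day 5 the values were -0.69, 0.49, 0.50, 0.62 and 0.66. Every mouse of days 1 and 2 was above every untreated mouse, and on day 5 mouse 1 was the lowest of all mice while the other 4 lay above the untreated range. Txnip rose 1.97-fold on day 1 (log2 0.98 ± 0.22 SE, 4 against 5 mice, limma, adjusted p = 0.0170) and 1.95-fold on day 2 (log2 0.96 ± 0.20, adjusted p = 0.00458). The day 1 call was lost without day 1 mouse 2 or 3, at 0.86 to 0.97 (adjusted p = 0.0521 to adjusted p = 0.0692). Under quantile normalization neither rise passed, at 0.89 and 0.82 (adjusted p = 0.0599 and adjusted p = 0.0509), nor with equal spread, at 0.96 and 0.85. The day 1 rise also did not pass without the 3 mice of low technical correlation (0.93, limma, adjusted p = 0.0903). The fall from day 2 to day 5 (-0.70 ± 0.20, limma, adjusted p = 0.0488) was lost on leaving out any 1 of 15 of the 19 mice. The 4 mice that could be left out without losing it were untreated mouse 2, day 1 mouse 3 and day 5 mice 4 and 5. Without day 5 mouse 1 it was -0.45. The fall was also lost in 7 of 14 other alternatives. The second probe for Txnip had no value in any mouse.

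Txnrd1 encodes the cytosolic thioredoxin reductase, a selenium enzyme. It was -0.31, 0.01, -0.14, -0.13 and -0.52 in untreated mice and 0.13, 0.33, 0.47, 0.55 and 0.24 on day 2, without overlap. The day 1 values (0.44, 0.01, -0.11 and 0.09) and the day 5 values (0.07, -0.16, -0.14, 0.33 and 0.05) overlapped both. Txnrd1 rose 1.48-fold on day 2 (log2 0.56 ± 0.14, limma, adjusted p = 0.0129), also after quantile normalization and equal spread, but not on technical array 1 alone (0.51, adjusted p = 0.0527). Thioredoxin itself, Txn1, averaged -0.39 ± 0.32 (SD, n = 5) untreated, 0.15 ± 0.25 (n = 4) on day 1 and -0.11 ± 0.23 (n = 5) on day 2, and did not pass on either day (limma, day 1 difference 0.54 ± 0.20, adjusted p = 0.190). With both technical arrays and a random effect of mouse, Txn1 passed on day 1. That fit took the correlation between technical arrays as 0.600 for every probe. Its p-values can be too small where the arrays of a mouse agree more closely. Txndc17, a thioredoxin-like protein, and Txnl4a, a spliceosome protein with a thioredoxin fold, did not pass.

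**Figure D3:**
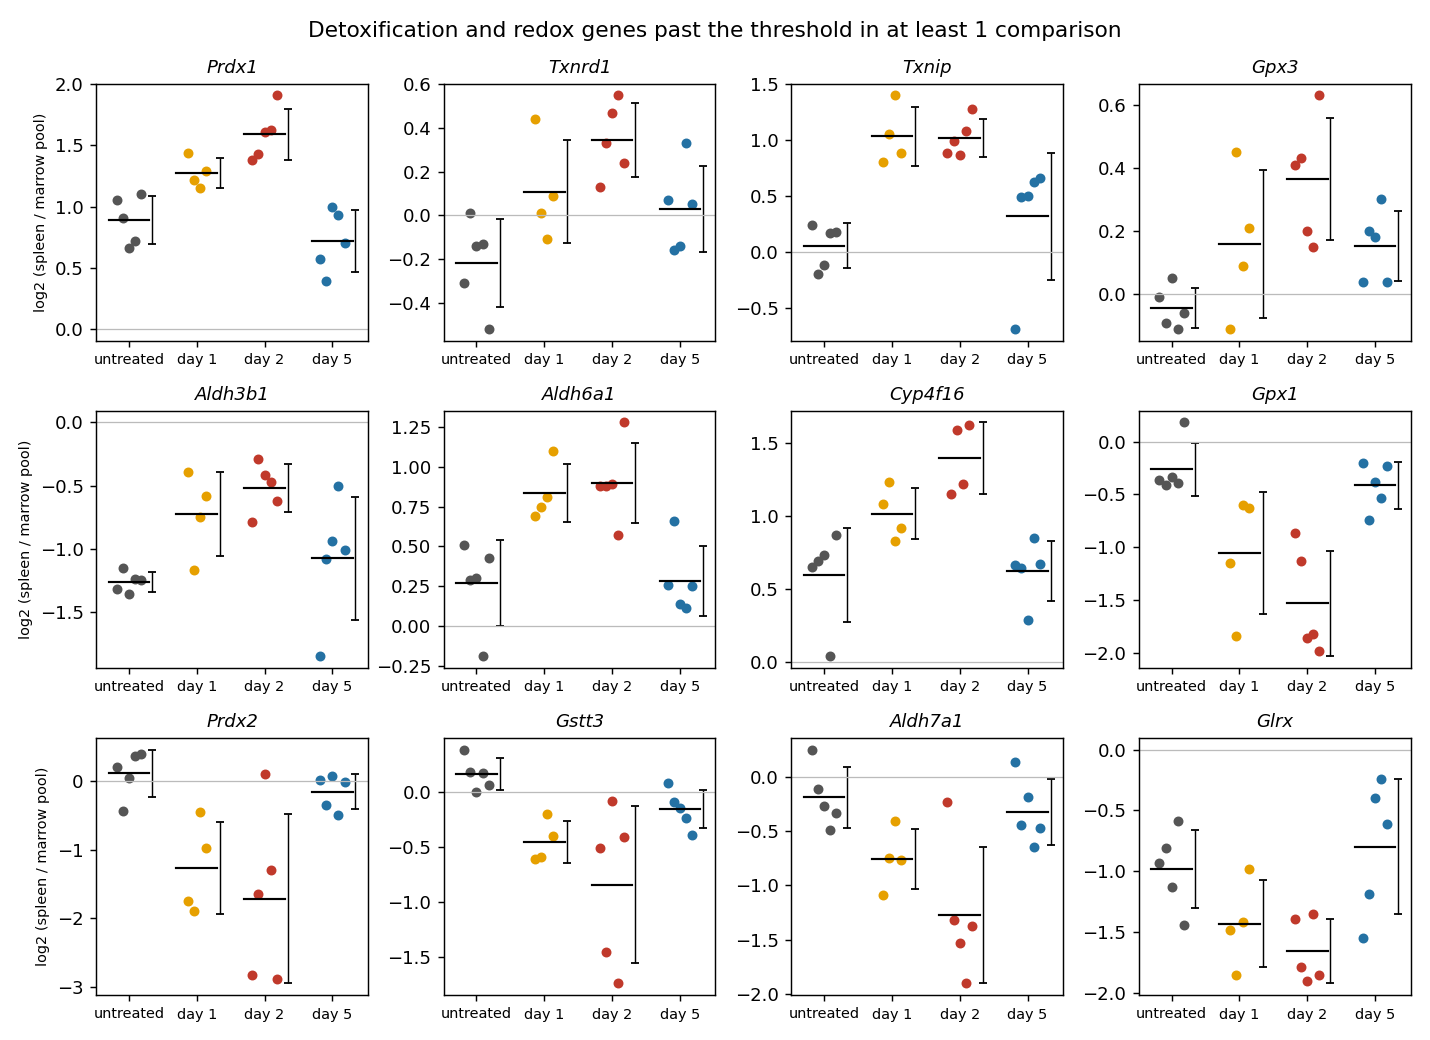
Log2 ratio of spleen to the marrow pool (vertical axes, scaled per gene) for the 12 member genes that passed in at least 1 comparison, 1 point per mouse in the untreated, day 1, day 2 and day 5 groups; black lines are group means and bars ± 1 SD. Day 2 Prdx1 values (1.38 to 1.91) all exceed the untreated ones (0.66 to 1.10), and for Prdx2 day 2 mouse 3 (0.10) stands apart from the other 4 (-2.89 to -1.30).

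Prdx1 and Txnrd1 are textbook targets of NRF2, the transcription factor that binds antioxidant response elements with small MAF proteins. The element's core TGACNNNGC was searched on both strands of the promoter windows of RefSeq (GRCm38.p6, 250 bases before to 50 after each start). It was found in 12.4% of 32851 promoters and in 1 or more promoters of 14% of all genes. Of the 80 tested member genes 68 are in that table, and 9 hold the core (13.2%): Cyp2c65, Cyp4f14, Cyp4f18, Cyp8b1, Gstm5, Gstm7, Mgst1, Prdx1 and Txnrd1. Of the 11 genes in the table that passed in some comparison, Prdx1 and Txnrd1 hold it, and both rose on day 2; the other 7 with the core did not pass, with day 2 changes from -0.33 to 0.63. The windows below show both cores and, beside them, the 2 peroxidase genes that fell. Windows were placed around the core in Prdx1 (-169 to -90) and Txnrd1 (-128 to -49). For Gpx1 and Prdx2, which lack it, the last 80 bases before the start are shown (-80 to -1). The display therefore does not compare like stretches. Txnip, Gpx3, Aldh3b1, Aldh6a1 and Cyp4f16, which rose on day 2, also lack the antioxidant core and are not shown. Capitals mark the antioxidant core, read in Prdx1 and Txnrd1 from the minus strand. In Prdx2 they mark the letters GCGTG on either strand, the core bound by the aryl hydrocarbon receptor. Gpx1 has neither in the bases shown. All are on the plus strand and 80 bases long.
Prdx1 (chr4:116685430-116685509): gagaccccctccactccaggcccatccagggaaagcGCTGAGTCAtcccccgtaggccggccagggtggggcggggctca
Txnrd1, 1 of 3 starts (chr10:82859078-82859157): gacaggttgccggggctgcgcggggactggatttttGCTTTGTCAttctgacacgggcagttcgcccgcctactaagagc
Gpx1 (chr9:108339000-108339079): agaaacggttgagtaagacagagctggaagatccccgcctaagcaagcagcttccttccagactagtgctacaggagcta
Prdx2 (chr8:84969542-84969621): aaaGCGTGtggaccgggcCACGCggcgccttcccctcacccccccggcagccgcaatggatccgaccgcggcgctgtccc

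The letters GCGTG are common: 32.4% of promoters hold them, as do 25 of the 68 member genes (36.8%, against 35.2% of all genes). Among the 11 genes with a call, 6 hold them: Aldh6a1, Cyp4f16, Txnip and Txnrd1, which rose on day 2, and Gpx1 and Prdx2, which fell.

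Glutathione peroxidases reduce peroxides with glutathione, and 2 of the 6 tested probes passed on day 2, in opposite directions. Of all probes, 8.31% passed on that day. Gpx1, the selenium enzyme of the cytosol that is abundant in red cells, was -0.36, -0.41, -0.34, -0.39 and 0.18 in untreated mice and -1.15, -1.84, -0.60 and -0.63 on day 1. It was -0.87, -1.13, -1.86, -1.82 and -1.98 on day 2 and -0.20, -0.74, -0.38, -0.53 and -0.23 on day 5. No mouse of day 1 or 2 reached the lowest untreated one, and all day 5 mice above all day 2 mice. Gpx1 fell 2.41-fold on day 2 (log2 -1.27 ± 0.23, limma, adjusted p = 0.00135), in every alternative tried (-1.48 to -0.93). It rose 2.17-fold from day 2 to day 5 (log2 1.12 ± 0.23, adjusted p = 0.00592), which did not pass under quantile normalization (0.73, adjusted p = 0.113) or with equal spread (1.01, adjusted p = 0.0521). The day 1 difference was -0.79 ± 0.25 (limma, adjusted p = 0.106). It passed with both technical arrays and a random effect of mouse (limma, adjusted p = 0.00615). For Gpx1 the technical arrays of a mouse differed by a median of 0.04, so that p-value can be too small.

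Gpx3, which encodes the form secreted into plasma, was -0.01, -0.09, 0.05, -0.11 and -0.06 untreated and 0.41, 0.43, 0.20, 0.15 and 0.63 on day 2, with no overlap. It rose 1.33-fold on day 2 (log2 0.41 ± 0.12, limma, adjusted p = 0.0394). The call was lost on leaving out untreated mouse 1, 2, 4 or 5 or day 2 mouse 1, 2 or 5 (0.34 to 0.42, adjusted p = 0.0651 to adjusted p = 0.117), and with a replicate block (0.41, adjusted p = 0.0654) or either rescaling (0.34 and 0.35). It was also lost on technical array 2 alone, with only the groups compared and without the 3 mice of low technical correlation (0.37, limma, adjusted p = 0.186). Gpx4, which reduces lipid hydroperoxides in membranes, lay above marrow in all untreated mice (0.37 ± 0.17, SD, n = 5) and averaged -0.11 ± 0.40 on day 1 (n = 4) and 0.07 ± 0.23 on day 2 (n = 5), without passing. The probes of Gpx2, a form of the gut lining, differed from untreated by -0.10 and -0.24 on day 2, and Gpx5, a form of the epididymis, by -0.37; none passed.

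Of the 13 glutathione transferase probes, 1 fell and none rose on day 2, when 8.31% of all probes passed. Gstt3, a theta class transferase, was 0.39, 0.19, 0.00, 0.18 and 0.07 in untreated mice, -0.61, -0.59, -0.20 and -0.40 on day 1 and -0.51, -1.46, -0.08, -1.74 and -0.41 on day 2. On day 5 it was 0.09, -0.09, -0.14, -0.23 and -0.39. No day 1 or day 2 mouse reached the lowest untreated value, and day 2 mice 2 and 4 lay farthest below. Gstt3 fell 2.01-fold on day 2 (log2 -1.01 ± 0.23, limma, adjusted p = 0.00843); without the 3 mice of low technical correlation the difference was -0.99 (adjusted p = 0.0537), and in a fit of only the groups compared it was -1.01 (adjusted p = 0.0592). Its relative Gstt1 differed by 0.07 ± 0.17 on day 2, and the test of one gene against the other was not made.

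2 other transferases had an unadjusted p below 0.05 on both days 1 and 2 and passed on neither, though Mgst1 passed on both with both technical arrays and a random effect of mouse. Mgst1, a transferase and peroxidase of the endoplasmic reticulum and the outer mitochondrial membrane, was far below marrow in all untreated mice (-2.43 to -1.71). On day 1 it was -1.17, -1.32, -1.46 and -0.95, above every untreated mouse, a difference of 0.81 ± 0.25 (limma, adjusted p = 0.101). On day 2 the difference was 0.63 ± 0.24 (adjusted p = 0.112). Gstk1, the kappa class transferase of mitochondria and peroxisomes, differed by 0.72 ± 0.24 on day 1 (adjusted p = 0.137) and 0.61 ± 0.23 on day 2 (adjusted p = 0.121), with untreated values spread from -1.05 to 0.59. Among the mu class, Gstm1, Gstm4, Gstm5, Gstm6 and Gstm7 had day 2 differences from -0.33 to 0.34 and none passed; these genes are close in sequence, and whether a probe reads its relatives was not tested.

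Among 8 aldehyde dehydrogenase probes, 2 rose and 1 fell on day 2, when 8.31% of all probes passed. Aldh3b1 oxidises aldehydes from lipid peroxidation. It was -1.32, -1.15, -1.36, -1.24 and -1.25 in untreated mice, -0.39, -1.17, -0.75 and -0.58 on day 1 and -0.79, -0.29, -0.42, -0.47 and -0.62 on day 2. The untreated values were tight and all lay below all day 2 values, while day 5 (-1.85, -1.08, -0.94, -0.50 and -1.01) spread across both. Aldh3b1 rose 1.68-fold on day 2 (log2 0.75 ± 0.19, limma, adjusted p = 0.0166), under both rescalings as well, but not without the 3 mice of low technical correlation (0.79, adjusted p = 0.0624).

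Aldh6a1, the methylmalonate-semialdehyde dehydrogenase of valine breakdown in mitochondria, was 0.51, 0.29, 0.30, -0.19 and 0.43 untreated. It was 0.69, 0.75, 0.81 and 1.10 on day 1, 0.88, 0.88, 0.89, 0.57 and 1.28 on day 2 and 0.26, 0.66, 0.14, 0.11 and 0.25 on day 5. All mice of days 1 and 2 lay above all untreated mice. Aldh6a1 rose 1.55-fold on day 2 (log2 0.63 ± 0.15, limma, adjusted p = 0.0122) and fell 1.53-fold from day 2 to day 5 (log2 -0.62 ± 0.15, adjusted p = 0.0211). The rise was 0.36 under quantile normalization (adjusted p = 0.199) and 0.44 with equal spread (adjusted p = 0.164), and 0.49 without the 3 mice of low technical correlation (adjusted p = 0.115). The later fall was lost without day 2 mouse 5 or day 5 mouse 3 or 4, at -0.58 to -0.52 (adjusted p = 0.0508 to adjusted p = 0.0679), under both rescalings and on technical array 2 alone.

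Aldh7a1, which oxidises an intermediate of lysine breakdown, moved the other way. It was 0.25, -0.11, -0.27, -0.49 and -0.33 untreated, -1.09, -0.75, -0.41 and -0.77 on day 1 and -0.23, -1.32, -1.53, -1.90 and -1.37 on day 2. On day 5 it was 0.14, -0.44, -0.19, -0.65 and -0.47. Day 2 mouse 1 lay within the untreated range and the other 4 below it. Aldh7a1 fell 2.11-fold on day 2 (log2 -1.08 ± 0.24, limma, adjusted p = 0.00583; -0.83 and adjusted p = 0.0637 under quantile normalization). It rose 1.93-fold from day 2 to day 5 (log2 0.95 ± 0.24, adjusted p = 0.0211), a call lost without day 2 mouse 3, 4 or 5 or day 5 mouse 1, at 0.79 to 0.92 (adjusted p = 0.0507 to adjusted p = 0.0671), and under quantile normalization (0.67, adjusted p = 0.206) or equal spread (0.89, adjusted p = 0.0685). That call was also lost with only the groups compared (0.95, limma, adjusted p = 0.0680).

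The cytochrome P450 genes were the largest family, with 35 tested probes, and 1 passed on day 2, when 8.31% of all probes did. Cyp4f16, of the family that oxidises fatty acids and leukotrienes, was 0.65, 0.69, 0.73, 0.04 and 0.87 untreated and 1.08, 1.23, 0.83 and 0.92 on day 1. It was 1.15, 1.59, 1.22 and 1.62 on day 2, where mouse 3 had no value, and 0.66, 0.64, 0.29, 0.85 and 0.67 on day 5. The day 2 mice lay above all untreated and all day 5 mice. Cyp4f16 rose 1.74-fold on day 2 (log2 0.80 ± 0.17, 4 against 5 mice, limma, adjusted p = 0.00472) and fell 1.71-fold to day 5 (log2 -0.77 ± 0.17, adjusted p = 0.00844). The rise was 0.39 under quantile normalization (adjusted p = 0.352) and 0.42 with equal spread (adjusted p = 0.278), and the fall did not pass under either.

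Other P450 genes with an unadjusted p below 0.05 on both days 1 and 2 did not pass the adjusted threshold in the main fit. Cyp4f18, which acts on leukotriene B4 in neutrophils, was below marrow in all untreated mice (-1.93 to -1.24). It lay above them in all mice of day 1 (-1.21 to -0.56) and day 2 (-1.17 to -0.61), with differences of 0.59 ± 0.19 and 0.52 ± 0.18 (limma, adjusted p = 0.115 and adjusted p = 0.0861). Cyp4v3, a fatty acid hydroxylase, differed by 0.91 ± 0.26 and 0.70 ± 0.24 (adjusted p = 0.0661 and adjusted p = 0.0868). Cyp27a1, the sterol hydroxylase of mitochondria that macrophages express, differed by 0.75 ± 0.26 and 0.56 ± 0.24, and Cyp2c55 by -0.50 ± 0.21 and -0.49 ± 0.20. For Cyp27a1, untreated mouse 2 lay at -0.78 and the other untreated mice at 0.35 to 0.65. With a random effect of mouse, Cyp4f18 and Cyp27a1 passed on both days and Cyp2c55 on day 2. Among other alternatives, Cyp4v3 passed on both days with array weights, and Cyp4f18 on day 2 under quantile normalization. The 35 probes had a median of 0.03 on day 2, with 19 above 0 and 16 below.

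The reductases, glutaredoxins and superoxide dismutases held 1 call. Of 6 aldo-keto and quinone reductase probes none passed, with day 2 differences from -0.34 to 0.37. The probes of Akr1c6, a hydroxysteroid dehydrogenase, gave 0.37 and 0.09. Of 3 glutaredoxin probes, Glrx, the cytosolic enzyme that removes glutathione from proteins, passed between days 2 and 5. It was -0.93, -0.81, -1.13, -0.59 and -1.44 untreated, -1.39, -1.79, -1.90, -1.35 and -1.85 on day 2 and -1.55, -1.19, -0.40, -0.24 and -0.61 on day 5. The day 2 mice overlapped untreated mouse 5 and day 5 mouse 1. Glrx rose 1.81-fold from day 2 to day 5 (log2 0.85 ± 0.23, limma, adjusted p = 0.0313). Without day 2 mouse 2, 3 or 5 or day 5 mouse 3, 4 or 5 it did not pass, at 0.72 to 0.82 (adjusted p = 0.0663 to adjusted p = 0.0876), and under quantile normalization it was 0.28 (adjusted p = 0.651). The call was also lost with equal spread (0.57, limma, adjusted p = 0.431), on technical array 2 alone, with only the groups compared and without the 3 mice of low technical correlation. Against untreated the day 2 difference of -0.67 ± 0.23 missed the threshold (adjusted p = 0.0773). It passed with both technical arrays and a random effect of mouse (limma, adjusted p = 0.0265). The superoxide dismutases of mitochondria (Sod2, -0.18 ± 0.14 on day 2) and of the extracellular space (Sod3, 0.06) did not pass.

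Genes listed for cyclophosphamide handling, a broad list that also holds Nqo1 and Cyp1a1, were few among those tested. Of 37 such genes listed, 28 are on the array and 15 were tested, and limma called 0 in any of the 5 comparisons, beside 2.33% of all probes on day 1, 8.31% on day 2 and 5.30% from day 2 to day 5. Among 15 probes such shares amount to about 1 call or none. At an unadjusted p below 0.05 there were 0 on day 1, 0 on day 2, 1 on day 5 (Gstt1; 6.67% of the 15, against 5.22% of all probes) and 3 from day 2 to day 5 (Aldh1a3, Cyp2b9 and Cyp3a16; 20.0%, against 18.3%). The shares of all probes on days 1 and 2 were 13.2% and 20.9%. Cyp2b10, a main activating enzyme of mouse liver, differed by 0.09 ± 0.16 on day 2 (95% interval -0.24 to 0.42). Cyp2c39 differed by 0.35 ± 0.21 and Cyp3a25 by -0.19 ± 0.20. For Cyp2c39, untreated mouse 2 lay at -1.41 and the other untreated mice at -0.04 to 0.05, beside a day 2 mean of 0.07. On the inactivating side, Aldh2 differed by 0.47 ± 0.24 (-0.03 to 0.96), Aldh1a3 by 0.26 ± 0.18, Gsta1 by -0.05 ± 0.18 and Gstm1 by -0.21 ± 0.12. Nqo1, the quinone reductase often used as a readout of NRF2, differed by -0.31 ± 0.20 (-0.72 to 0.11). The 15 lay between -0.31 and 0.47 on day 2, with a median of -0.05. Of these 15, Cyp2b9 alone was below marrow in all 5 untreated mice, at -0.60 to -0.03.

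50 of the 132 matching probes were not tested. 9 had no value in any mouse, 28 had values in 1 to 9 mice and 13 in 10 or more. They include Aldh1a1 and Aldh3a1, the dehydrogenases best known for inactivating cyclophosphamide, and both subunits of the enzyme that starts glutathione synthesis. Of these, Gclc had a value in 3 untreated, 2 day 1, 2 day 2 and 1 day 5 mice and Gclm in none. Sod1, Txn2, Gsta3, Cyp2e1 and Cyp3a11 were also left out. 9 probes were 1 mouse short in 1 group: Akr1c18, Akr1cl, a Cyp1a2 probe, Cyp24a1, Cyp2j9, Cyp4f15 and Txnl1 in the untreated group, Aldh1a7 on day 1 and the sterol enzyme gene Cyp51 on day 5. Why values are absent is not stated by any source here. Of the 82 tested members, 59 had a value in every mouse.

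In untreated spleens 12 members lay above the marrow pool in every mouse with a value (14.6%, against 12.1% of all probes) and 14 lay below (17.1%, against 16.8%). Those above include Prdx1 (0.89 ± 0.20, SD, n = 5), Cyp4f16 (0.60 ± 0.32), Prdx4 (0.52 ± 0.33) and Gpx4 (0.37 ± 0.17). Those below include Mgst1 (-2.03 ± 0.35), Cyp4f18 (-1.46 ± 0.29), Aldh3b1 (-1.27 ± 0.08) and Glrx (-0.98 ± 0.32). These ratios hold any bias between the dyes, since the dyes were not swapped, and were not tested.

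Of 78 genes of the same pathways outside the naming rule, 63 are on the array and 36 were tested. The shares that passed were near those of all probes: 2.78% against 2.33% on day 1, 11.1% against 8.31% on day 2 and 5.56% against 5.30% from day 2 to day 5. On day 1, 1 rose: Ahr, the aryl hydrocarbon receptor that senses ring-shaped pollutants and induces Cyp1 genes (1.15 ± 0.20, limma, adjusted p = 0.00331). On day 2, 3 rose and 1 fell. Ahr rose (1.19 ± 0.19, adjusted p = 0.000411), as did the selective autophagy receptor gene Sqstm1 (0.75 ± 0.19, adjusted p = 0.0147) and the conjugate export pump gene Abcc3 (1.28 ± 0.25, adjusted p = 0.00235). The N-acetyltransferase gene Nat2 fell (-0.41 ± 0.11, adjusted p = 0.0229). Cyp1a1, the classical gene induced through the receptor, differed by 0.01 ± 0.17 on day 1 and -0.10 ± 0.17 on day 2. The NRF2 gene Nfe2l2 (-0.21 ± 0.17), the sulfiredoxin gene Srxn1 (0.07 ± 0.18), the cystine importer gene Slc7a11 (0.09 ± 0.14) and the glutathione synthetase gene Gss (-0.24 ± 0.16) did not pass on day 2. On day 5 none of the 36 passed in limma against untreated (Ahr and Msra, 2 in all, had an unadjusted p below 0.05, 5.56% against 5.22% of all probes), and from day 2 to day 5 Sqstm1 (-0.89) and Abcc3 (-0.88) fell.

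Cell type markers moved over the same days. Of 15 probes of red cell precursor genes, 5 fell on day 1 and 9 on day 2, with medians of -0.34 and -0.91, and 8 rose from day 2 to day 5. The median of these genes in a mouse, centred per probe, ran from 0.39 to 0.59 in untreated mice. On day 1 it ran from -0.65 to -0.01, on day 2 from -0.78 to -0.05, and 5 days after the drug from 0.13 to 0.77. That order of groups, low on days 1 and 2, is also the order of Gpx1, Prdx2, Gstt3 and Aldh7a1. These 4 are the members picked for falling on day 2, so their low place then follows from that choice. Of all 8319 probes, 416 fell on day 2. Within day 2 the red cell medians of mice 1 to 5 were -0.49, -0.68, -0.52, -0.05 and -0.78, beside Prdx2 at -2.82, -1.65, 0.10, -1.30 and -2.89 and Gpx1 at -0.87, -1.13, -1.86, -1.82 and -1.98. Mouse 5 was lowest in all 3 measures, mouse 4 had the highest red cell median, and mouse 3 the highest Prdx2. In the same mice Gstt3 was -0.51, -1.46, -0.08, -1.74 and -0.41, and Aldh7a1 was -0.23, -1.32, -1.53, -1.90 and -1.37. Both were lowest in mouse 4, where the red cell median was highest. 5 of 8 probes of cycling cells also fell on each of days 1 and 2 (medians -1.38 and -1.59). Their centred median in a mouse had the same order of groups. It ran from 0.21 to 0.94 in untreated mice and from 0.18 to 1.01 on day 5. On day 1 it ran from -0.74 to -0.31 and on day 2 from -1.30 to -0.32.

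**Figure D4:**
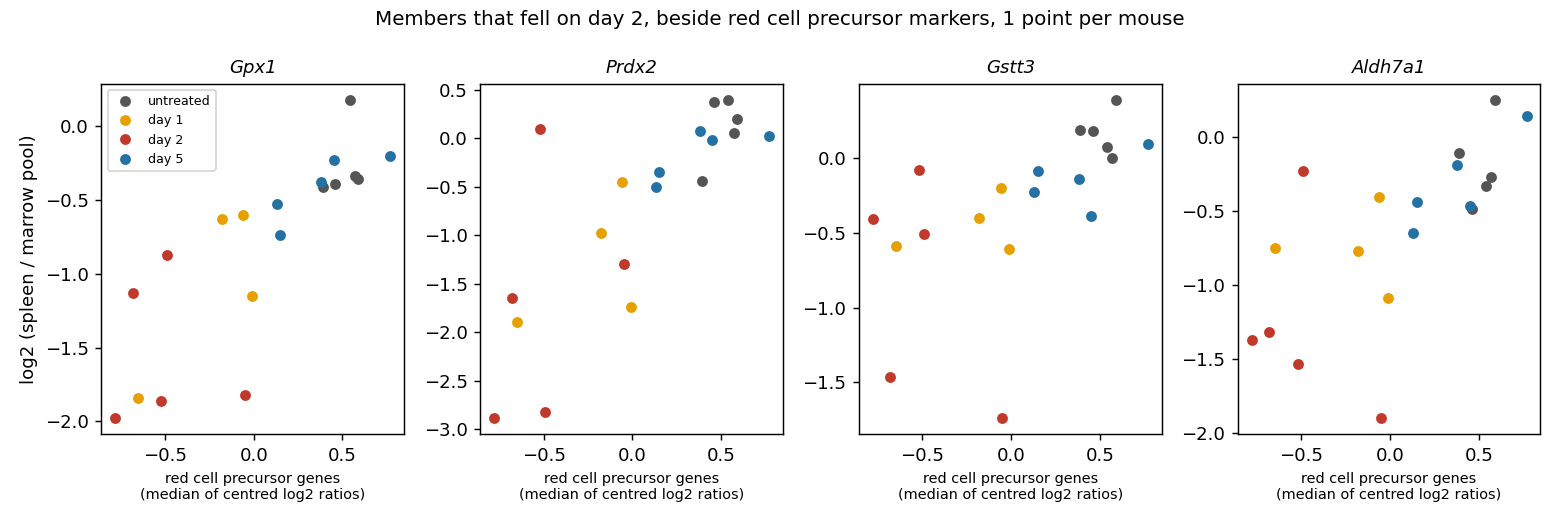
Log2 ratio of spleen to marrow pool (vertical axes) for the 4 members that fell on day 2, against the median of red cell precursor genes in the same mouse (horizontal axes, log2 ratios centred per probe), 1 point per mouse, coloured by group. Untreated and day 5 mice lie at 0.13 to 0.77 on the horizontal axis and day 1 and day 2 mice at -0.78 to -0.01; Prdx2 in day 2 mouse 3 (0.10) and Aldh7a1 in day 2 mouse 1 (-0.23) stand near the untreated values.

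Of 8 macrophage probes, 1 rose on day 1 and 2 on day 2, with medians of 0.76 and 0.60, and the centred median of a mouse was -0.67 to -0.30 untreated, -0.07 to 0.33 on day 1 and -0.31 to 0.86 on day 2. Of 10 stroma and endothelium probes, 2 rose on each of days 1 and 2, with medians of 0.76 and 0.54. Of 3 platelet probes none rose on day 1 and 1 on day 2, with medians of 0.59 and 0.79, and 1 rose on day 5 (median 1.15). Of 6 neutrophil probes none passed on day 1 or 2, with medians of -0.61 and -0.47. T and B cell probes did not pass on either day. These changes stand beside the rises of Prdx1, Txnip, Txnrd1, Gpx3, Aldh3b1, Aldh6a1 and Cyp4f16. The part of the marker changes in the members' changes was not tested.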

How the data were processed

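Spleen RNA of 19 mice was compared with 1 pooled marrow reference on 38 two-colour arrays, spleen in Cy5 and reference in Cy3, with no dye swap. Extraction used the Qiagen RNeasy Midi kit and amplification the Amino Allyl MessageAmp II kit of Ambion, per the labels' protocols. The authors deposited log2 ratios of spleen to reference. Their base was taken as 2. For the base, background correction, filtering, normalization and software no statement was found: they were not given in the sources used here. Array medians lie from -0.0212 to 0.0132, and 63.22% of values are present. 5 mice per condition are named in the design text, and day 1 has 4 here.

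Technical arrays were averaged per mouse, and a probe was kept if 3 or more mice per group had it. The fit was by limma 3.58.1 (R 4.3.3; lmFit and eBayes, with 4 group means sharing the spread and prior degrees of freedom 5.52), two-sided, with Benjamini-Hochberg adjustment over 8319 probes and a threshold of 0.05. No slide or scan batch is given, so none was tested. Equal mouse numbers do not pair the mice: over 27 pairs of equal number, deviations from the group means correlated at -0.00472 on average. Gene names came from the array annotation (10032 probes with 1 gene, 170 with several, 3241 with none) updated through RefSeq (GRCm38.p6).

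Named members are those past the threshold in any of 5 comparisons, the member of smallest p in families without a call, and those on the cyclophosphamide list; others are named for contrast or for an unadjusted p below 0.05, chosen after their values were seen. The members, gene lists and rules were chosen with earlier results of these data known. Alternatives were other scalings, single technical arrays, a random effect of mouse, other presence filters, a variance trend, array weights, a replicate block, only the groups compared, averaged probes, a stricter threshold, and leaving out each mouse or the 3 of low technical correlation. The random effect of mouse used 1 correlation between technical arrays, 0.600, for all probes. Figures used matplotlib 3.10.9 in Python 3.11.15. Precision is set by the number of mice; a member's change had a median standard error of 0.17 to 0.18.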

Additional observations from a re-analysis of the deposited data

Results flagged for a closer look

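In some groups of 4 or 5 mice 1 mouse stood apart by Dixon's criterion, which chance meets in about 1 in 20 groups; it was met in 8 of the 110 groups of named members examined. In untreated mice these were Gpx1 in mouse 5 (0.18), Aldh1a3 in mouse 4 (-0.80), Cyp2c39 in mouse 2 (-1.41) and Cyp4f16 in mouse 4 (0.04). On day 5 they were Aldh1a3 in mouse 2 (-0.75), Cyp3a16 in mouse 3 (1.09), Txnip in mouse 1 (-0.69) and Aldh6a1 in mouse 2 (0.66). Untreated mice 2 and 4 are among the 3 mice of low technical correlation.

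The effect at day 2 differed from that at day 5 in 8 members, as the limma comparison of day 5 with day 2 tested. Gpx1 (1.12), Prdx2 (1.56), Aldh7a1 (0.95) and Glrx (0.85) were higher on day 5, and Prdx1 (-0.87), Txnip (-0.70), Cyp4f16 (-0.77) and Aldh6a1 (-0.62) were lower.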

How the results depend on the processing

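The count of members past the threshold on day 1 (1) was 0 with equal spread between mice, 0 without the 3 mice of lowest technical correlation and 0 at a threshold of 0.01. It was 2 with array weights, 3 among probes with a value in every mouse, 4 in a fit of only the groups compared (2 rose, 2 fell) and 9 with both technical arrays and a random effect of mouse (7 rose, 2 fell). Under quantile normalization it stayed at 1, but the member was Prdx2, which fell. Leaving out 1 mouse gave 0 to 2. The day 2 count (11) was 7 under quantile normalization (5 of the 11, plus Mgst1 and Cyp4f18), 6 with equal spread (all among the 11), 7 without the 3 mice (all among the 11) and 7 at a threshold of 0.01, and leaving out 1 mouse gave 10 to 12. The count from day 2 to day 5 (8) was 1 under quantile normalization (Cyp4f18, none of the 8), 0 with equal spread, 5 on technical array 2 alone, 4 with only the groups compared and 3 at a threshold of 0.01, and leaving out 1 mouse gave 3 to 8. For day 5 against untreated and day 2 against day 1 the count was 0 when any mouse was left out (0 to 0) and in the other fits. Calls over all probes moved as well. On day 1 they went from 194 to 452 with the random effect of mouse and to 90 with equal spread. On day 2 they went from 691 to 329 under quantile normalization, 351 with equal spread and 409 without the 3 mice. From day 2 to day 5 they went from 441 to 69 under quantile normalization and 154 with equal spread. The cause of these shifts was not tested. With a replicate block, which the labels do not name, the counts were 1 on day 1, 10 on day 2 and 8 from day 2 to day 5. Of the day 2 calls the block lost Gpx3 (0.41, adjusted p = 0.0654, limma). No named member that passed changed sign in any alternative.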

Other observations

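Day 5 mouse 1, singled out after its values were seen, was the lowest of its group for Txnip (-0.69) and Glrx (-1.55), and it had the highest red cell precursor median of all mice (0.77). Its cycling cell median (1.01) was also the highest of all mice. Over 68 member probes it was the lowest or highest of its group in 35.3%. The other day 5 mice were so in 36.8% to 45.6%.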
